A study of Mus musculus with 8 samples.

Results

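Mast cells and basophils are granule-bearing cells that arise from myeloid progenitors, and their genes were followed through the CD31+ cells of the aorta-gonad-mesonephros (AGM) region of the mouse embryo. The set comprised 10 named genes of the 28014 in the deposited count table: Cpa3, Gzmb, Mcpt8, Prss34, Cma1, Ms4a2, Fcer1a, Hdc, Mcpt4 and Tpsb2. They were picked by name after an earlier analysis of these data had shown Cpa3 higher in mutant cells in endothelial-to-hematopoietic transition (EHT), so that comparison is given here as a description without a test. The question was which of the 10 cell types hold these transcripts, whether the counts lie in a few cells, and how they vary with genotype.

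RNA and 6 antibody tags were counted in single CD31+ cells sorted from embryos at embryonic day 10.5 (E10.5). Wild-type (WT) C57BL/6 embryos gave 5 libraries and Meis1-flox/VE-Cre embryos gave 3. The paper also writes WT for floxed littermates without Cre, and the cells of WT 5 bear names that start with Mf. Whether WT 5 came from such littermates is not stated. The stock name of the Cre line in the paper is that of a mixed background, so strain may differ between the genotypes. In the Meis1-flox/VE-Cre embryos, loxP sites flank exon 8 of Meis1 and the Cdh5 promoter drives Cre. Deletion thus takes place in endothelium and is inherited by its descendants. Each library was a pool of 2 to 5 embryos, so that spread between libraries is spread between pools, and individual embryos were not resolved. The authors named 10 clusters, of which those with blood identity were EHT cells, erythro-myeloid progenitors (EMP), Myeloid cells and Megakaryocytes, and the rest were arterial, pre-hemogenic and venous endothelium (aEC, pre-HE, vEC_1 to vEC_4).

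The table held 15168 cells, with 747 EMP, 2397 Myeloid and 488 EHT cells. Library totals ranged from 20484881 to 79429129 unique molecular identifiers (UMIs, each marking 1 captured RNA molecule). Median UMIs per cell lay between 26572 and 28553 in WT 1 to 4, at 12720.5 in WT 5, and between 9611.5 and 14895 in the Meis1-flox/VE-Cre libraries, so genotype and depth moved together except in WT 5. The barcodes of 66 cells occurred in more than 1 library, with at most 4 barcodes shared by any pair. The targeted gene Meis1 was read in UMIs per 1000000 UMIs of the same cells (CPM). In EMP cells it stood at 56.7 to 77.0 CPM in WT libraries and at 20.9 to 36.4 CPM in Meis1-flox/VE-Cre libraries, without overlap. In EHT cells its ranges overlapped, at 68.0 to 85.8 CPM in WT and 55.5 to 70.9 CPM in Meis1-flox/VE-Cre libraries. Its ranges also overlapped in Myeloid cells, at 12.7 to 27.6 CPM in WT and 7.78 to 13.2 CPM in Meis1-flox/VE-Cre libraries. Reads from 3′ ends do not read the deleted exon itself and so do not check its deletion.

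Mast cells are identified by the receptor Kit, the high-affinity IgE receptor and granules filled with proteases, histamine and the proteoglycan serglycin. Basophils share the IgE receptor and histamine but carry other proteases. Both lineages depend on the transcription factor Gata2, and in the early embryo mast cell potential has been traced to yolk sac erythro-myeloid progenitors. Cpa3 encodes mast cell carboxypeptidase A and is switched on early, already in progenitors. Hdc encodes histidine decarboxylase, the enzyme that makes histamine. Fcer1a and Ms4a2 encode the alpha and beta chains of the IgE receptor. Cma1 and Mcpt4 are chymases and Tpsb2 is a tryptase of mature mast cells, Mcpt8 and Prss34 are basophil proteases, and Gzmb encodes granzyme B, known from cytotoxic lymphocytes and also found in mast cells.

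In the mouse assembly GRCm38.p6, the protease genes Cma1, Mcpt4, Mcpt8 and Gzmb lie within 1 stretch of chromosome 14, from 55941451 to 56262334, and Prss34 and Tpsb2 lie on chromosome 17 between 25298394 and 25368096. Cpa3 is on chromosome 3 (20215616 to 20242209), Hdc on chromosome 2 (126593659 to 126624025), Ms4a2 on chromosome 19 (11615517 to 11623790) and Fcer1a on chromosome 1 (173221269 to 173227232). RefSeq promoters in the same build were matched for 9 of the 10 genes. The word AGATAA, a binding motif of GATA factors, was searched on both strands in the 250 bases before each start. It was present before Cpa3, Ms4a2, Fcer1a and Prss34, once each except for 3 matches before Ms4a2, and 9.99% of all 32851 promoters held it in that window. No match was found in these windows of Hdc, Gzmb, Mcpt8, Cma1 or Mcpt4. Other forms of the GATA motif were not searched, so the lack of this word does not show the lack of a GATA site. The sequences before Cpa3, Ms4a2 and Fcer1a are shown because these 3 genes were found in shared cells together with the GATA factor gene Gata2, and the sequence before Hdc is shown because it shared those cells without the word. The capitals mark AGATAA or its reverse complement TTATCT, the start site of the RefSeq transcript used follows the last base (for these 4 genes it lies inside the gene's full span), and a match is no evidence of binding.
Cpa3 (chr3:20242182-20242431, minus strand): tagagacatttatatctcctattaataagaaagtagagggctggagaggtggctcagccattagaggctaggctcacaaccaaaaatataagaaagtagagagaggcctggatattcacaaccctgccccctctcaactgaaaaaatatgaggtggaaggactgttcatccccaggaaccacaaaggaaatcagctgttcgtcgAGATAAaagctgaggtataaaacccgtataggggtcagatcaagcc
Ms4a2 (chr19:11623720-11623969, minus strand): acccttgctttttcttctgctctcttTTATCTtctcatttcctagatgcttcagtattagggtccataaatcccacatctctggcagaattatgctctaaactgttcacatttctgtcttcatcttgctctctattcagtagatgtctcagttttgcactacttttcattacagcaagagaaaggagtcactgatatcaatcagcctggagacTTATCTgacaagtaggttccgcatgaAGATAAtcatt
Fcer1a (chr1:173227230-173227479, minus strand): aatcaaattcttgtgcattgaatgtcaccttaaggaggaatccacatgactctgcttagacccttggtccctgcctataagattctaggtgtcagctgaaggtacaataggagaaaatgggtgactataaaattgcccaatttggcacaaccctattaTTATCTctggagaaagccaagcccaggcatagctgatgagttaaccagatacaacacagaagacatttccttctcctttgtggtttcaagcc
Hdc (chr2:126618679-126618928, minus strand): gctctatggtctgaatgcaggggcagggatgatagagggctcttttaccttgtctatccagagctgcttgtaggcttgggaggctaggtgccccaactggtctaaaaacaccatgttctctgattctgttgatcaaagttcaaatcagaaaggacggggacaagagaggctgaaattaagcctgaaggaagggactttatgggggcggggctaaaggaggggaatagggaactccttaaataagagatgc

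Of the 10 genes, 5 carried nearly all of the signal and 3 were not seen. Cpa3 was counted 3646 times in 464 cells and Hdc 2334 times in 507 cells. Gzmb was counted 789 times in 30 cells, Ms4a2 112 times in 51 cells and Fcer1a 29 times in 24 cells. Cma1 reached 4 UMIs in 3 cells, all of them EMP cells of Meis1-flox/VE-Cre libraries, and Mcpt8 reached 2 UMIs in 2 Myeloid cells of the same genotype. Prss34, Mcpt4 and Tpsb2 had 0 UMIs in 15168 cells, which allows a share of up to 0.0198% of cells with a UMI. The further mast cell proteases and receptors Tpsab1, Tpsg1, Mcpt1, Mcpt2, Mcpt9, Cma2, Mrgprb1 and Mrgprb2 were likewise at 0. The proteases that define mature mast cells and basophils were thus at or near 0 in these libraries, and the set is described by its early genes Cpa3, Hdc, Ms4a2 and Fcer1a.

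Cpa3 was a transcript of EMP cells, with 77.5% of its UMIs there, 16.1% in Myeloid cells and 6.01% in EHT cells. Its pooled level fell in the order EMP (116 CPM), EHT (19.0 CPM) and Myeloid (7.82 CPM). It was at 0.149 CPM or less in every other cell type, and at 0 in aEC and pre-HE. Since UMIs of 3′ ends do not scale with transcript length, these levels can be set beside those of other genes. Hdc followed with 69.5 CPM in EMP, 7.45 CPM in Myeloid and 1.22 CPM in EHT cells. Ms4a2 stood at 3.71 CPM in EMP, 0.261 CPM in EHT and 0.253 CPM in Myeloid cells. Fcer1a reached 0.577 CPM in EMP and 0.186 CPM in Myeloid cells. EHT and Myeloid cells cannot be ranked for Cpa3. Over WT libraries the mean in EHT cells, 1.37 ± 0.956 CPM (SD, n = 5), lay below the 2.44 ± 1.74 CPM of Myeloid cells, and over Meis1-flox/VE-Cre libraries it lay above, at 91.3 ± 125 against 15.3 ± 5.34 CPM (SD, n = 3), each difference being within the spread. Clusters had been drawn from the same RNA counts, so that these orders are descriptions.

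Endothelial cells gave the background. Among 11177 endothelial cells, 0.125% held a Cpa3 UMI (exact 95% interval 0.0685% to 0.210%) and 0.644% an Hdc UMI (0.504% to 0.811%), never more than 1 per cell, at a median of 14698 UMIs per cell. No endothelial cell held Ms4a2, which allows up to 0.0330% by the upper exact bound. Intervals cover counting error only.

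The counts lay in few cells. The richest 46 cells held 50% or more of all Cpa3 UMIs and the richest 51 cells did so for Hdc, against 11 cells for Ms4a2, 10 for Fcer1a and 2 for Gzmb. The richest single cell held 5.68% of Cpa3 UMIs, 3.51% of Hdc UMIs and 32.3% of Gzmb UMIs. Among the 464 cells with Cpa3, 151 held exactly 1 UMI. The plot of cumulative UMIs shows Gzmb apart from the other genes at its left end.

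**Figure D1:**
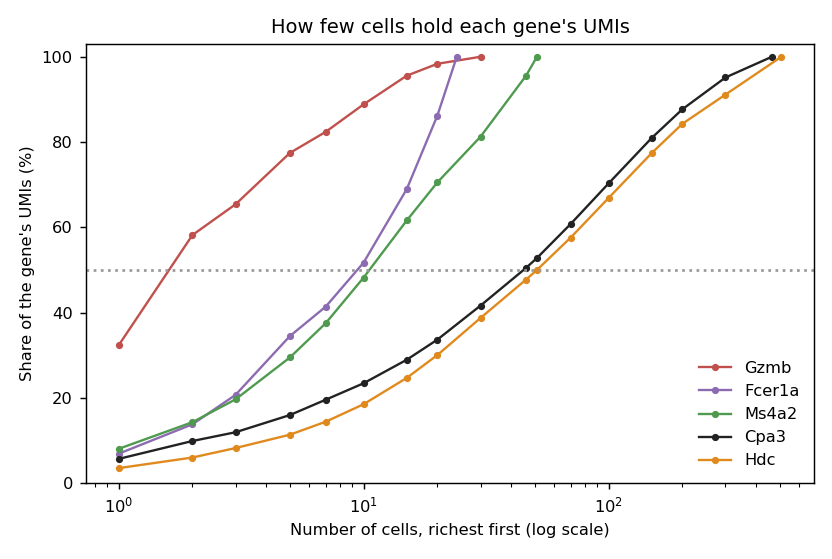
Cumulative share of each gene's UMIs (vertical axis, %) held by its richest cells, ranked from the richest (horizontal axis, number of cells, log scale), over all 15168 cells. The dotted line marks 50%, which Gzmb crosses with 2 cells, Fcer1a with 10, Ms4a2 with 11, Cpa3 with 46 and Hdc with 51.

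The genes met in the same cells. UMIs of 3 or more of the 10 genes were found in 51 cells, of which 39 were EMP, 10 Myeloid and 2 EHT cells, and a further 195 cells held exactly 2. All 51 held Hdc, 49 held Cpa3, 36 held Ms4a2, 13 held Gzmb, 12 held Fcer1a and 3 held Cma1. Their median was 16598 UMIs, and 0 of them had been called doublets. The share of EMP cells with 3 or more of the genes was 1.69%, 5.06%, 0%, 3.88% and 2.70% in WT 1 to 5, and 11%, 7.48% and 4.55% in Meis1-flox/VE-Cre 1 to 3. WT 2 lay among the Meis1-flox/VE-Cre libraries and the other 4 WT libraries lay below them. In all, 36 of the 51 cells came from Meis1-flox/VE-Cre libraries, which had 357 of the 747 EMP cells and more Myeloid cells than the WT libraries. At a matched depth of 5000 UMIs per cell, reached by drawing UMIs at random, 16 cells held 3 or more of the genes. These 16 were not split by genotype.

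Within EMP cells thinned to 5000 UMIs, 189 held Cpa3 and 558 did not. Hdc was found in 32.3% of the former and 13.4% of the latter, with the higher share in 7 of 8 libraries. Ms4a2 was found in 5.82% and 0.538% of them, that is in 11 and 3 cells, with the higher share in 5 libraries and the lower in 1. Fcer1a was found in 2.65% and 0.179%, or 5 cells and 1 cell, higher in 2 libraries and lower in 1. Gzmb was found in 3.17% and 1.08%, or 6 cells each, higher in 2 libraries and lower in 3. Gata2 was present in 54.0% against 27.4%, again higher in 7 of 8 libraries, and Fcer1g, the shared gamma chain of Fc receptors, in 95.2% against 80.5%, higher in 8 of 8. Cd200r3, a receptor of mast cells and basophils, was found in 12.7% against 2.69%, and Itgb7, an integrin of mast cell progenitors, in 11.1% against 1.79%. Kit did not separate them, with 29.1% against 29.0%. Mpo, the myeloperoxidase of neutrophil granules, was present in 75.7% of the cells with Cpa3 and 63.1% of those without. Cells of 1 library are not replicates, and these shares carry no test.

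Overlap between the most abundant pair was partial. Of 464 cells with Cpa3, 221 also held Hdc, or 47.6%, and these were 43.6% of the 507 cells with Hdc. Among cells with at least 10 UMIs, 64.4% of 101 Cpa3 cells held Hdc and 53.3% of 60 Hdc cells held Cpa3. The cell with the most Hdc, an EMP cell of WT 1, held 82 Hdc UMIs and 0 of Cpa3 beside 18 of Gata2 and 41 of Mpo. The cell with the second most, an EMP cell of WT 2, held 58 of Hdc, 17 of Cpa3 and 6 of Ms4a2.

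The 39 EMP cells with 3 or more of the genes were set beside the other 708 EMP cells at 5000 UMIs. Outside the set, the largest gains in share were those of Fam46a (71.8% against 17.7%), Gpr183, a chemotactic receptor for oxysterols (56.4% against 7.49%), Lmo4, a LIM-domain transcription cofactor (94.9% against 48.6%), Fcgr3, a low-affinity IgG receptor (76.9% against 33.9%) and Gata2 (74.4% against 31.9%). Fos, Klf6, Ifitm1, Oaf and Glipr1 completed the 10 with the largest gain, at 37.5 to 41.5 percentage points. The largest losses in share were those of Dnttip2 (15.4% against 55.2%) and Wdr43 (30.8% against 69.4%). These cells were chosen from the same counts, so this too is a description.

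Over 79 sums of a library and cell type, the genes whose log2(CPM + 1) followed Cpa3 most closely were Nkg7 (Pearson r 0.94), Cd244 (0.92), Slc45a3 (0.91), Tespa1 (0.90) and Ms4a3 (0.90). For Hdc they were Gpr174 (0.94), Tdrd5 (0.93), Cebpe (0.93), Lmo4 (0.92) and Mgl2 (0.92). Cpa3 and Hdc followed each other at 0.88. The sums share libraries, depth and the contrast between blood and endothelium, and 13550 genes were ranked.

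Cpa3 was higher in EMP cells of Meis1-flox/VE-Cre embryos. WT 1 to 5 had 57.5, 47.1, 139, 82.0 and 54.5 CPM, while Meis1-flox/VE-Cre 1 to 3 had 282, 233 and 202 CPM. The lowest Meis1-flox/VE-Cre library lay above the highest WT library, with group averages of 239 ± 40.6 (SD, n = 3) against 76.0 ± 37.6 CPM (SD, n = 5). On the log2 scale the fold change fitted by edgeR's quasi-likelihood test was 1.72, SE 0.28, and its p after Benjamini-Hochberg adjustment over 9172 genes was 0.0157. Of the 4 genes of the set that passed the filter on low counts in EMP, this was the 1 called, where 4.74% of all genes were called, 2.68% higher and 2.06% lower. Against WT 5 alone, the WT library of matching depth, the log2 fold change was 2.15 with an edgeR adjusted p of 0.00266, where the spread came from the 3 Meis1-flox/VE-Cre libraries and WT 5 was assumed to vary like them. With log2 median UMIs per cell as a covariate it was 2.10, with an edgeR adjusted p of 0.260, and without Meis1-flox/VE-Cre 1 it was 1.59 with an adjusted p of 0.101. Without the Cpa3-richest cell of each library, an alternative chosen after seeing the data, it was 1.60 with an adjusted p of 0.0300.

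edgeR called no other gene of the set in EMP, and DESeq2 also called Ms4a2 (log2 fold change 2.06, adjusted p 0.0430). WT 1 to 5 had 106, 112, 38.3, 40.3 and 34.5 CPM of Hdc, and Meis1-flox/VE-Cre 1 to 3 had 86.2, 81.1 and 57.3 CPM. The WT libraries fell both above and below the Meis1-flox/VE-Cre libraries, with a log2 fold change of 0.22 (SE 0.37, edgeR adjusted p 0.794). It was 1.14 against WT 5 alone, 0.89 with the depth covariate and 0.74 after thinning, with edgeR adjusted p of 0.123, 0.807 and 0.346. For Ms4a2 the WT libraries had 0.330, 5.13, 0, 1.42 and 2.60 CPM and the Meis1-flox/VE-Cre libraries 8.28, 9.21 and 6.46 CPM. These did not overlap, the log2 fold change was 1.96 (SE 0.59), and the edgeR adjusted p of 0.113 missed the threshold of 0.1. Leaving out WT 2 or WT 5 gave edgeR adjusted p of 0.0301 and 0.0820, and leaving out any of the other 6 libraries gave 0.124 to 0.290. With WT 5 as the only WT library it was 0.557. The values rested on 38 UMIs in WT and 52 in Meis1-flox/VE-Cre libraries. Ms4a2 passed the filter on low counts through its Meis1-flox/VE-Cre values, since of the WT libraries only WT 2 came near them. Its p values carry that selection. Fcer1a was too low for the test. Its 3 UMIs in WT EMP cells lay in 3 libraries, and Meis1-flox/VE-Cre 1 to 3 had 7, 4 and 0.

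**Figure D2:**
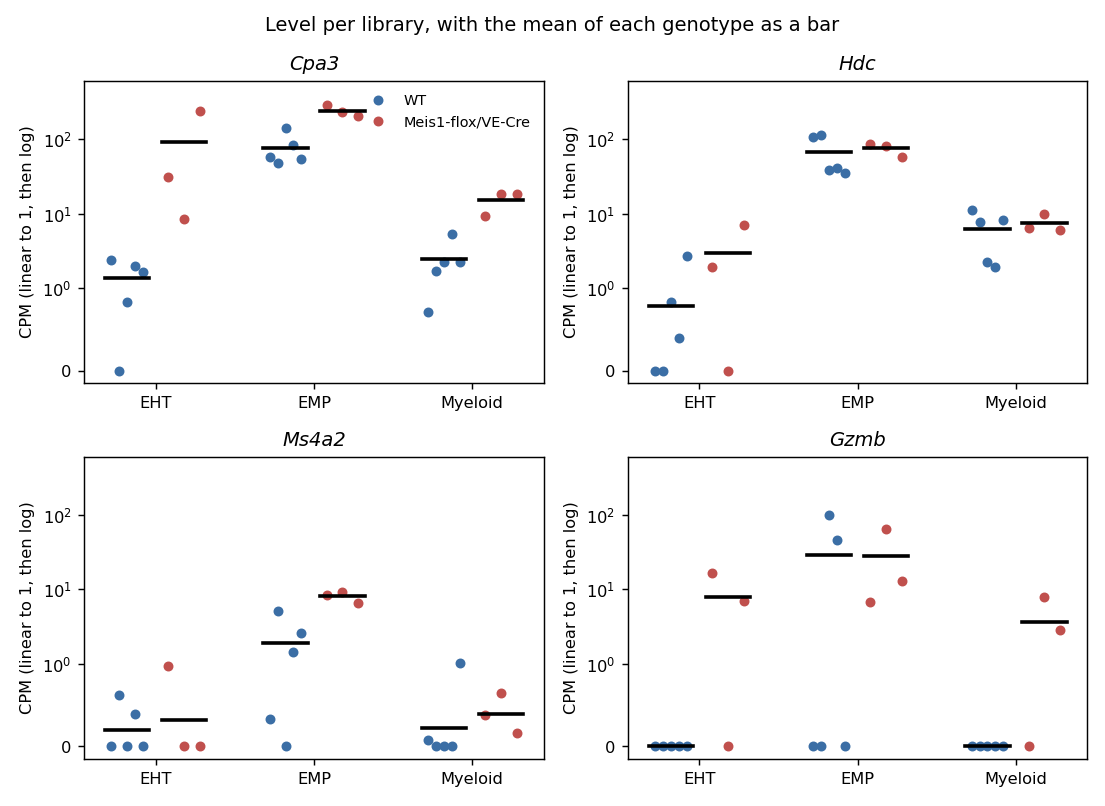
CPM of Cpa3, Hdc, Ms4a2 and Gzmb (vertical axes, linear to 1 and logarithmic above) in EHT, EMP and Myeloid cells, with 1 point per library and the mean of each genotype as a bar (8 libraries). Cpa3 lies higher in every Meis1-flox/VE-Cre library of EMP and Myeloid cells than in any WT library, while Hdc overlaps in both.

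EMP cells rich in Cpa3 were more frequent in the Meis1-flox/VE-Cre libraries, while those with a single UMI were about equally frequent. After thinning to 5000 UMIs, the share of EMP cells with any Cpa3 was 16.9%, 17.7%, 39.5%, 17.5% and 17.1% in WT 1 to 5 and 36%, 27.9% and 32.7% in Meis1-flox/VE-Cre 1 to 3. WT 3, with 38 EMP cells, stood above all others. The means of 21.7% ± 9.91 (SD, n = 5) and 32.2% ± 4.08 (SD, n = 3) gave an exact two-sided permutation p of 0.143, where 0.0179 is the smallest possible, and without WT 3 the exact permutation p was 0.0286, the smallest then possible. Without any of the other 7 libraries the exact permutation p was 0.143 to 0.429, and without thinning it was 0.232. Cells with 1 UMI made up 11.3% of EMP cells in WT and 11.5% in Meis1-flox/VE-Cre libraries. Cells with 5 or more of 5000 numbered 4 of 390 in WT and 35 of 357 in Meis1-flox/VE-Cre libraries, a limit chosen after seeing the data and given as a description. Their share was 1.69%, 1.27%, 0%, 0.971% and 0.901% in WT 1 to 5, and 16%, 5.44% and 10.0% in Meis1-flox/VE-Cre 1 to 3. The groups did not overlap, and the highest single counts were 11 in WT and 101 in Meis1-flox/VE-Cre libraries.

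**Figure D3:**
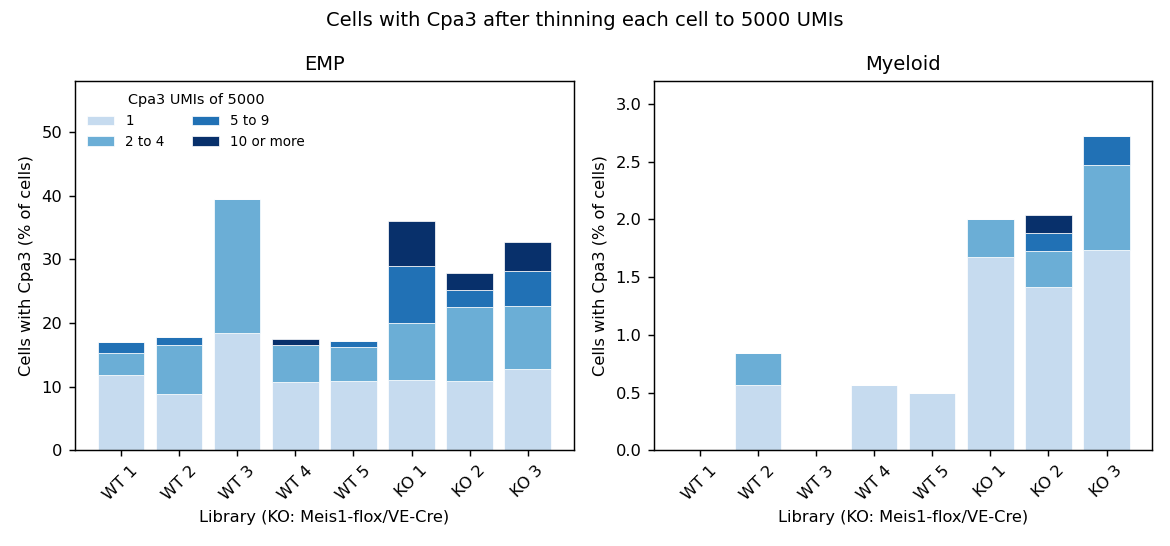
Share of EMP and Myeloid cells with Cpa3 (vertical axes, %, on different scales) in each library after each cell was thinned to 5000 UMIs, split by the number of Cpa3 UMIs. The parts with 5 or more UMIs make up 5.44% to 16% of EMP cells in Meis1-flox/VE-Cre libraries (KO) and at most 1.69% in WT libraries.

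In Myeloid cells Cpa3 was lower and again differed between genotypes. WT 1 to 5 had 0.706, 1.69, 2.23, 5.34 and 2.23 CPM, and Meis1-flox/VE-Cre 1 to 3 had 9.18, 18.5 and 18.4 CPM. The groups did not overlap, although 42 of the 44 UMIs in WT 4 came from 1 cell. edgeR placed the log2 fold change at 2.79, SE 0.46, with 0.0191 as its adjusted p. Of the 2 genes of the set tested in Myeloid cells it was the 1 called, against 3.26% of all 11479 genes called, 1.48% higher and 1.78% lower. Against WT 5 alone the log2 fold change was 2.87 (edgeR adjusted p 0.0227, with the spread again from the Meis1-flox/VE-Cre libraries only), and with the depth covariate the log2 fold change was 2.92 with an adjusted p of 0.392. Without the Cpa3-richest cell of each library the log2 fold change was 3.93 (edgeR adjusted p 0.00622). The share of Myeloid cells with Cpa3 at 5000 UMIs was 0.381% ± 0.371 (SD, n = 5) in WT and 2.26% ± 0.405 (SD, n = 3) in Meis1-flox/VE-Cre libraries, and 5 cells were too shallow to enter. The exact permutation p, two-sided, was 0.0179, the smallest possible. The endothelial share at that depth was 0.0271%.

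Hdc was not called in Myeloid cells. WT 1 to 5 had 11, 7.76, 2.23, 1.94 and 8.06 CPM of Hdc and Meis1-flox/VE-Cre 1 to 3 had 6.38, 9.83 and 6.07 CPM, with overlap of the groups and a log2 fold change of 0.21 (SE 0.42, edgeR adjusted p 0.869). The genotype difference of Cpa3 was compared between EMP and Myeloid cells within libraries, on log2(CPM + 0.5). The level in EMP exceeded that in Myeloid cells by 4.77 ± 0.82 (SD, n = 5) in WT and 3.97 ± 0.78 (SD, n = 3) in Meis1-flox/VE-Cre libraries, and the exact permutation p was 0.232 (0.464 adjusted over Cpa3 and Hdc). In Megakaryocytes, of which WT 3 had too few, none of the 10 genes passed the filter, while 0.206% of 7770 genes were called, 0.142% higher and 0.0644% lower.

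In EHT cells the level of Cpa3 rested on single cells. WT 1 to 5 had 2.41, 0, 0.836, 1.95 and 1.63 CPM, and Meis1-flox/VE-Cre 1 to 3 had 31.0, 8.34 and 234 CPM. The groups did not overlap, and this is the difference with which the set was chosen, in a comparison where 0.127% of 8670 genes were called, 0.0577% higher and 0.0692% lower. Of the 169 UMIs in Meis1-flox/VE-Cre 3, 153 came from 1 cell, and of the 32 in Meis1-flox/VE-Cre 1, 27 came from 1 cell. Without the richest cell of each library the 3 values were 4.94, 2.15 and 22.8 CPM, and the highest WT value was 1.20 CPM. Leaving out Meis1-flox/VE-Cre 3 took the mean from 91.3 to 19.7 CPM. At 5000 UMIs, Cpa3 was found in 3 of 325 WT and 8 of 160 Meis1-flox/VE-Cre EHT cells. The cell with 153 Cpa3 UMIs held 19110 UMIs in all, with 10 of Gata2, 58 of Srgn (serglycin), 4 of Runx1 and 6 of the endothelial gene Cdh5, and with 0 of Hdc, Ms4a2 and Gzmb. The cell with 27 held 17 UMIs of Gzmb, 2 of Hdc and 5 of Gata2.

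Most cells with Gzmb held transcripts either of cytotoxic lymphocytes or of the mast cell set. The 30 cells with Gzmb comprised 17 EMP, 8 Myeloid, 2 EHT and 3 endothelial cells, and 27 of them came from Meis1-flox/VE-Cre libraries. Most came from 1 pool, Meis1-flox/VE-Cre 2, with 8 EMP and 6 Myeloid cells and all 3 endothelial cells. Meis1-flox/VE-Cre 1 had 3 EMP and 0 Myeloid cells with Gzmb, and Meis1-flox/VE-Cre 3 had 3 and 2. Prf1, the perforin of cytotoxic lymphocytes, was found in 5 of the 30 cells, which held 550 of the 789 Gzmb UMIs, and Cpa3 in 18. Only 1 cell held both, an EMP cell of WT 4 with 123028 UMIs, 255 of Gzmb, 89 of Prf1 and 9 of Cpa3, which had not been called a doublet. The 4 cells with Prf1 and without Cpa3 held 477 UMIs of the related granzyme gene Gzmc, 128 of Gzma and 0 of Hdc. In 1 of these, a Myeloid cell of Meis1-flox/VE-Cre 2, also lay 1 of the 2 UMIs of Mcpt8. The 17 cells with Cpa3 and without Prf1 held 214 UMIs of Gzmb, 0 of Gzma and 0 of Gzmc, and Gata2 was present in 16 and Hdc in 11 of them. Of these 17 cells, 1 was WT, with 1 UMI of Gzmb. For comparison, Cpa3 lay in 14 of the 17 EMP cells with Gzmb and in 337 of all 747 EMP cells. The split by Prf1 and Cpa3, and the naming of Gzmc, were made after the values were seen, and reads shared among granzyme genes of near-identical sequence could have been assigned to either.

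**Figure D4:**
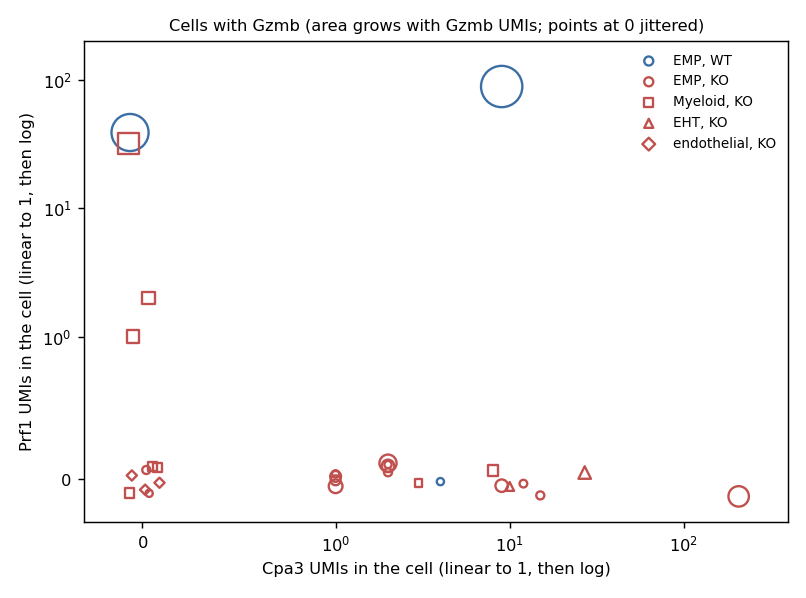
The 30 cells with Gzmb by their UMIs of Cpa3 (horizontal) and Prf1 (vertical), both axes linear to 1 and logarithmic above, with colour for genotype (KO, Meis1-flox/VE-Cre), shape for cell type and area growing with Gzmb UMIs. Cells lie along the 2 axes, 17 with Cpa3 and 4 with Prf1 alone, 8 near the origin with neither, and 1 with both.

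At the level of sums, WT 1 to 5 had 0, 0, 99.3, 45.2 and 0 CPM of Gzmb in EMP cells, where each nonzero value came from 1 cell but for a single UMI, and Meis1-flox/VE-Cre 1 to 3 had 6.82, 64.5 and 12.9 CPM. Present in all 3 Meis1-flox/VE-Cre and in 2 of 5 WT libraries, it had a log2 fold change of 0.08 (SE 1.24, edgeR adjusted p 0.983). In Myeloid and EHT cells it was at 0 in every WT library and reached 7.90 CPM in Meis1-flox/VE-Cre Myeloid cells and 16.5 CPM in EHT cells.

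The wider lists of mast cell and basophil genes were read in the same tests and are described by counts and medians. These lists, and those of other lineages below, were chosen with earlier results of these data known. Their counts beside the share of all genes are therefore descriptions. Some genes passed the filter on low counts through the Meis1-flox/VE-Cre libraries, and these could be called only as rises. In EMP they included Itgb7, Cd200r3 and Il6, and in Myeloid cells Cd200r3. In EMP, 3 of 10 tested receptors and transcription factors rose in Meis1-flox/VE-Cre embryos and 0 fell, where 2.68% of all genes rose and 2.06% fell, with a list median log2 fold change of 0.30 against -0.0029 over all genes. These were Cd200r3 (2.52, SE 0.33, edgeR adjusted p 0.00613), Cd200r4 (2.24, SE 0.32, edgeR adjusted p 0.00731) and Itgb7 (2.35, SE 0.46, edgeR adjusted p 0.0311). Cd200r3 and Cd200r4 are closely related in sequence, so that reads may have been split between them. Of the regulators that did not pass, Gata2 had 0.29 (edgeR adjusted p 0.249) and Kit -0.35 (edgeR adjusted p 0.284), while the interleukin-33 receptor Il1rl1 had 0.31 (edgeR adjusted p 0.724). Of 6 genes of IgE receptor signalling, Fcer1g rose by 0.61 (SE 0.12, edgeR adjusted p 0.0280) and the other 5 were not called. Of 10 granule and mediator genes, Srgn rose by 0.58 (SE 0.13, edgeR adjusted p 0.0436) and Cd63, a granule membrane protein, by 0.72 (SE 0.16, edgeR adjusted p 0.0486). The cytokine gene Il6 rose by 2.07 (SE 0.35, edgeR adjusted p 0.0163), and Il4, with 0.37, was not called. Against WT 5 alone, a comparison without WT replicates, 3 receptors and transcription factors were called, and 0 genes of IgE signalling, granules and cytokines. With depth as a covariate 2 receptors and transcription factors were called and 0 genes of the other lists.

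In Myeloid cells, where 1.48% of all genes rose and 1.78% fell, 2 of 12 receptors and transcription factors rose, namely Cd200r3 (2.23, SE 0.41, edgeR adjusted p 0.0300) and Csf2rb, the shared beta chain of the interleukin-3 receptor (0.88, SE 0.17, edgeR adjusted p 0.0344). Cd200r4, with 1.69, had an edgeR adjusted p of 0.101. Cd63 was the 1 of 10 granule and mediator genes that rose (0.81, SE 0.16, edgeR adjusted p 0.0369), and of the 6 genes of IgE receptor signalling edgeR called 0, DESeq2 0, and 1 had an unadjusted edgeR p under 0.05. With depth as a covariate 0 genes of these 3 lists were called in Myeloid cells. Ctsg, the cathepsin G of mast cells and neutrophils, was the 1 further protease of its list with counts and did not pass the filter. It had 166 UMIs in all, of which 109 lay in the Gzmb-richest EMP cell of WT 4 and 34 in the Myeloid cell of Meis1-flox/VE-Cre 2 with Gzmb, Prf1 and Mcpt8.

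**Figure D5:**
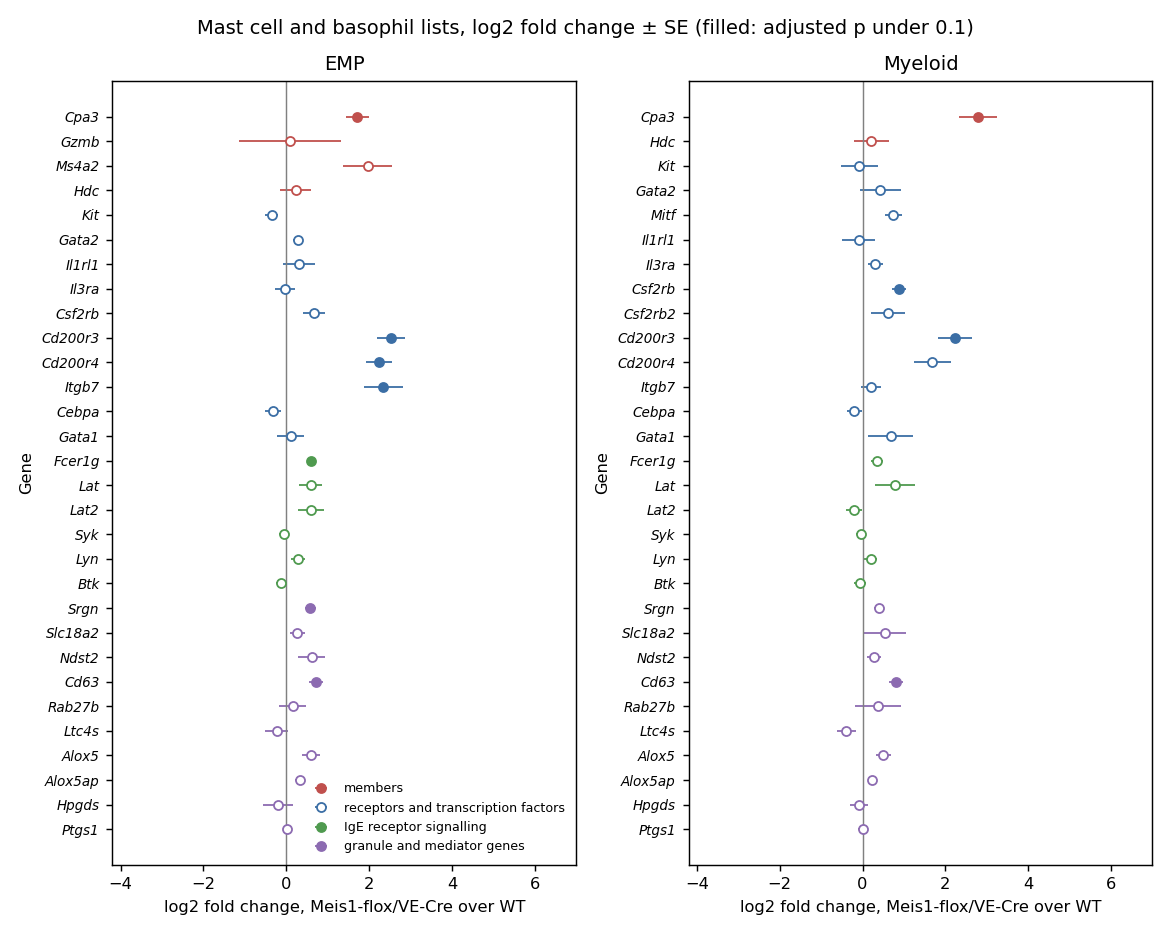
Log2 fold change between Meis1-flox/VE-Cre and WT (horizontal axes, with SE as bars) of each tested gene of the set and of the receptor, IgE signalling and granule lists (cytokines are not plotted) in EMP and Myeloid cells, coloured by list, with filled points where the edgeR adjusted p was under 0.1. In EMP the filled points of Cpa3, Cd200r4, Itgb7 and Cd200r3 lie at 1.72 to 2.52, and the other filled points plotted at 0.58 to 0.72.

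Genes of other lineages moved with genotype in the same cells. In EMP, 3 of 6 tested neutrophil granule genes rose (Prtn3, Mpo and Ms4a3), and the 10 genes of that list summed to 1459 to 1983 CPM in WT and 1967 to 3461 CPM in Meis1-flox/VE-Cre libraries, with Ltf at 0. Of 6 erythroid genes, the embryonic globins Hbb-bh1, Hbb-y and Hba-x rose, and the list summed to 6.78 to 214 CPM in WT and 298 to 1716 CPM in Meis1-flox/VE-Cre libraries. Prg2, a granule protein of eosinophils, fell from 59.0 ± 41.5 (SD, n = 5) to 0.496 ± 0.859 TMM-scaled CPM (SD, n = 3, edgeR adjusted p 0.0449), and the platelet gene Gp9 fell by 1.99 on the log2 scale (SE 0.41, edgeR adjusted p 0.0358). Of 5 macrophage genes edgeR and DESeq2 called 0 and 2 had an unadjusted edgeR p under 0.05, and of 6 endothelial genes 0 passed by any of these. In Myeloid cells, 4 of 8 neutrophil granule genes rose (Lcn2, Camp, Mpo and Ms4a3), with list sums of 737 to 1004 CPM in WT and 1679 to 2317 CPM in Meis1-flox/VE-Cre libraries. The part of these genes of other lineages in the Cpa3 difference was not tested. Lcn2 and Camp were at or near 0 in every WT library. They passed the filter on low counts through the Meis1-flox/VE-Cre libraries and could be called only as rises. Prg2 in EMP passed it through the WT libraries and could be called only as a fall. In the NK and T list, Nkg7 rose in both cell types, by 0.92 in EMP (edgeR adjusted p 0.00891) and by 1.65 in Myeloid cells (edgeR adjusted p 0.0165), and Cd3e was at 0. The other gene of that list tested in Myeloid cells, Klrd1, had a log2 fold change of -1.26 (edgeR adjusted p 0.181), and DESeq2 called 2 genes of the list there. With depth as a covariate, edgeR called 0 neutrophil granule, erythroid, eosinophil and NK and T genes in EMP, and 1 megakaryocyte gene. After thinning, these lists had 1, 3, 1, 1 and 1 genes called in that order. In Myeloid cells the covariate and thinning each gave 2 neutrophil granule genes and 0 NK and T genes called.

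Surface proteins were compared between cells with and without Cpa3 at 5000 UMIs, in libraries with tag counts and at least 5 cells of each kind. Tag counts were not scaled to depth. In EMP cells of 7 libraries, 0 of the 6 tags passed an adjusted p of 0.05, and 0 had an unadjusted exact p under it. The ratio was lower for CD27 in 5 of 7 libraries (mean log2 ratio -0.25 ± 0.27, SD, n = 7, exact sign-flip p 0.0625, adjusted 0.375) and for CD41 in 6 of 7 (-0.37 ± 0.44, SD, n = 7, exact p 0.0781, adjusted 0.375). CD44, read in 4 libraries, was lower in 4 of 4 (-0.55 ± 0.28, SD, n = 4), with an exact p of 0.125, the smallest 4 libraries allow. CD117, the protein of Kit, had -0.19 ± 0.24 (SD, n = 7). CD45-2 ranged from -0.38 to 1.84, with the highest ratios in Meis1-flox/VE-Cre 1 and 2. In Meis1-flox/VE-Cre 1, 1 EMP cell with Cpa3 held 2422 CD45-2 counts, where the mean of the 36 cells with Cpa3 was 97.4. With medians in place of means, the mean log2 ratio of CD45-2 over libraries was 0.13 instead of 0.46. Cells with Cpa3 had fewer UMIs in each of the 7 libraries, for example medians of 14113.5 against 22027.5 in Meis1-flox/VE-Cre 1.

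In Myeloid cells only the 3 Meis1-flox/VE-Cre libraries had 5 or more cells with Cpa3. There the mean log2 ratio was 1.58 ± 0.45 (SD, n = 3) for CD117, 1.99 ± 0.54 (SD, n = 3) for CD41 and 1.57 ± 0.40 (SD, n = 3) for CD43, each higher in 3 of 3 libraries. With 3 libraries the exact sign-flip p cannot go below 0.25. With Cpa3 read in the counts as deposited, 5 libraries entered, and CD117 had 1.52 ± 0.51 (SD, n = 5), higher in 5 of 5, with an exact p of 0.0625, the smallest possible (0.188 adjusted). The Myeloid cells with Cpa3 also had more UMIs, with medians of 40944.5, 21290 and 48521 against 22753, 14795 and 24504, and depth and tag level cannot be told apart here. Their RNA differed from that of other Myeloid cells in Gata2 (25.7% against 2.46% of cells), Kit (20% against 4.45%) and Mpo (74.3% against 36.8%), over 35 and 2357 cells. By library the Mpo share was higher in 3 of 3, that of Kit in 2 of 3 and that of Gata2 in 1 of 3. Hdc (17.1% against 1.91%) and Cd200r3 (11.4% against 0.382%) were also higher in the pooled cells. Other mast cell genes were not: Itgb7 was found in 0% against 2.12%, lower in 3 of 3 libraries. Ms4a2 and Fcer1a were found in 0 of the 35 cells, and Fcer1g in 97.1% against 98.8%.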

How the data were processed

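CD31+ cells of E10.5 AGM pools had been profiled by CITE-seq. The authors deposited raw UMI counts for 28014 genes and 6 antibody tags per cell. The submitters' processing notes name Cell Ranger 3.0.2 and mm10, and cells had been kept with over 2000 genes and under 10% mitochondrial reads. Clusters were taken from the deposited annotation, which the authors had made by integration and clustering. The members and lists were chosen with earlier results of these data known. Named genes were the members, the fixed lists, the 5 genes most like Cpa3 and Hdc, and 10 genes of cells with 3 or more members.

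Counts were summed per library and cell type (at least 10 cells) and tested across all genes with edgeR 4.0.16 in R 4.3.3 (TMM, filterByExpr, quasi-likelihood, Benjamini-Hochberg adjusted p under 0.1). On simulated EMP counts 77.5% of genes changed by 1.5 (log2) were recovered, with 9.76% false calls. Shares and tags were compared by exact permutation or sign flip over libraries, after thinning cells to 5000 UMIs. Tag ratios were log2 of mean counts with 1 added. Scrublet (scanpy 1.11.5) marked 83 cells as doublets, which were kept except in an alternative. The group of each library came from its labels, and CD44 was missing in WT 1 to 4 and all tags in WT 4.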

Additional observations from a re-analysis of the deposited data

Results flagged for a closer look

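In 2 of 15 sets of values from the 5 WT libraries, 1 library stood apart from the other 4 by Dixon's criterion, which chance meets in about 1 of 20 sets. WT 3 had Cpa3 in 39.5% of its EMP cells at 5000 UMIs, while the other 4 WT libraries lay between 16.9% and 17.7%. It had 38 EMP cells, the fewest of any library, and none of them reached 5 Cpa3 UMIs of 5000. Ms4a2 in Myeloid cells stood at 1.03 CPM in WT 5, from 6 UMIs in 2 cells of which 5 lay in 1 cell, against 0 to 0.0785 CPM in the other 4.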

How the results depend on the processing

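Cpa3 was higher in Meis1-flox/VE-Cre cells under all 19 alternatives in EMP and all 18 in Myeloid cells, with the call lost under depth as a covariate (log2 fold change 2.10, adjusted p 0.260, and 2.92, adjusted p 0.392) and, in EMP, without Meis1-flox/VE-Cre 1. Leaving out 1 library at a time gave 1.59 to 2.05 in EMP and 2.45 to 3.42 in Myeloid cells. After thinning, Cpa3 did not pass the filter in Myeloid cells. Over all alternatives the adjusted p ran from 2.2e-05 to 0.260 in EMP and from 5.9e-06 to 0.392 in Myeloid cells. Depth and genotype cannot be told apart outside WT 5. The cause of the changes below was not tested.

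Genes of the set called in EMP numbered 2 with DESeq2, 2 without a filter, 0 with the depth covariate and 0 to 2 without 1 library, and in Myeloid cells 2 without a filter, 0 with the covariate, 0 after thinning and 1 to 2 without 1 library. The number called over all genes moved with the setting too. Apart from leaving out 1 library, it ran from 25 to 953 in EMP and from 10 to 1335 in Myeloid cells. The counts of the set are thus descriptions and are not read against the share of all genes. Genes called in EMP numbered 164 at an adjusted p of 0.05, 25 with the covariate, 50 with WT 5 alone, 130 after thinning, 717 in libraries 1 to 3 unblocked and 44 to 828 without 1 library. In Myeloid cells they numbered 186, 10 and 193 at 0.05, with the covariate and after thinning, 584 with DESeq2, 1335 unblocked and 44 to 1421 without 1 library. In Megakaryocytes they numbered 8 at 0.05, 86 with DESeq2, 273 without a filter, 1 with the covariate, 10 with WT 5 alone, 9 without doublets, 0 after thinning, 31 unblocked and 0 to 118 without 1 library. In EHT cells they numbered 5, 43, 237, 2, 6, 6, 0 and 278 under the same settings in that order and 0 to 261 without 1 library.

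The labels give no pairing beyond equal replicate numbers. Deviations of same-numbered libraries correlated at 0.0097 to 0.16 in EMP, -0.15 to 0.13 in Myeloid and -0.032 to 0.089 in EHT cells. In Megakaryocytes the values were 0.11 and -0.085. Without differently numbered pairs beside them, these values cannot show whether such libraries shared a batch. With the replicate number as a block over libraries 1 to 3, genes called numbered 953 in EMP, 1333 in Myeloid cells, 71 in Megakaryocytes and 450 in EHT cells, and 2 genes of the set were called in EMP, Ms4a2 being the added one (adjusted p 0.0581). Under that block Hdc had -0.053 in EMP, and the Myeloid share of cells with Cpa3 differed by 1.97 points with a sign-flip p of 0.25, the smallest possible.

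The difference in share of EMP cells with Cpa3 was 14.8 points at 3000 UMIs (exact permutation p 0.0357) and 8.56 to 14.9 without 1 library. Log2 fold changes of Gzmb in EMP turned negative with DESeq2 (-0.016), without the Cpa3-richest cells (-0.47) and without 1 library (-1.40 to 1.15). Hdc had -0.14 in EMP in libraries 1 to 3 unblocked, and in Myeloid cells -0.30 with the covariate, -0.040 with WT 5 alone, -0.064 unblocked and -0.034 to 0.49 without 1 library. As centred log ratios, CD45-2 (-0.61), CD27 (-1.11) and CD44 (-0.98) were lower in Myeloid cells with Cpa3. CD117 (0.37), CD41 (0.63) and CD43 (0.72) stayed higher but by less than in the main comparison, and CD41 in 2 of 3 libraries only. Without 1 library, CD43 in EMP ranged from -0.069 to 0.082 and CD45-2 in Myeloid cells from -0.23 to 0.75. Mean Cpa3 in Meis1-flox/VE-Cre EMP was 351 CPM after thinning and 190 CPM without the richest cells, Hdc 110 CPM after thinning, Cpa3 in Meis1-flox/VE-Cre Myeloid cells 9.10 CPM after thinning and in WT 0.655 CPM without the richest cells, and Fcer1a in WT 0.388 CPM in EMP and 0.536 CPM in Myeloid cells after thinning. Cells with 2 or more of the genes numbered 246, and those with 3 or more after thinning 16.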
